A study of Mus musculus with 10 samples.

Results

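Described here are 10 genes of the Hippo pathway in the mouse lung: the TEAD transcription factor genes Tead1, Tead2, Tead3 and Tead4, the coactivator genes Yap1 and Wwtr1 (Wwtr1 encodes TAZ), the TEAD cofactor gene Vgll4, the kinase genes Lats1 and Lats2, and the angiomotin-like gene Amotl2. They were taken by gene symbol from the 47333 genes of the deposited count table, and all 10 passed the filter on low counts that left 18024 genes. They were chosen by their levels in knockout and wild-type mice, above all the higher level of Tead4 in knockouts. The levels of the 10 genes in those 2 genotypes are therefore given as a description, with no p-value, while the difference between the sexes, which played no part in the choice, was tested.

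In the Hippo pathway, the kinases MST1 and MST2 (encoded by Stk4 and Stk3) activate LATS1 and LATS2, which phosphorylate YAP and TAZ and keep them out of the nucleus. Unphosphorylated YAP and TAZ enter the nucleus, bind the TEAD proteins, which hold the DNA-binding domain, and switch on genes such as Ccn2, Ccn1 and Ankrd1. VGLL4 competes with YAP and TAZ for TEAD, and angiomotin proteins hold YAP and TAZ at cell junctions and in the cytoplasm. In the lung the pathway is known for its part in airway branching, in the alveolar type 1 cell, and in repair of the epithelium after injury.

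RNA came from the right middle lobe of the lung of untreated C57BL/6J mice aged 12 weeks. 5 mice were Bpifb1 knockouts (KO; 1 male and 4 females) and 5 were wild type (WT; 2 males and 3 females), and cages held both genotypes. Bpifb1 codes for a protein that airway cells secrete, and the labels give neither the knockout allele nor whether littermates were used. Values are CPM, the estimated counts of a gene scaled to the total of its library multiplied by the TMM factor of that library. The TMM factor, from edgeR, adjusts the totals between libraries. CPM values are listed for replicates 1 to 5 in turn. Replicate 1 of the KO group and replicates 2 and 3 of the WT group were the males.

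Libraries held 21357424 to 28321294 counts. Bpifb1, the targeted gene, stood at 0.217 to 1.26 CPM in KO mice and at 28.1 to 79.5 CPM in WT mice, so that the genotype labels held in every library. KO replicate 5, labelled female, went against its sex label in part. Xist, the X-inactivation RNA of cells with a pair of X chromosomes, stood at 1.78 CPM there and at 273 to 407 CPM in the other 6 females, while 4 Y-linked genes had 0 counts there and 2470 to 3441 counts in the males. The label was kept. The counts of members and the genes named for sex are given with and without this mouse, except in the alternative fits. In whole lung, more cells of a type and more RNA per cell cannot be told apart.

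The 4 TEAD genes descend from a common ancestor, and it matters for their counts how far 50-base reads can tell them apart. The coding stretch in which Tead4 and its relatives are most alike spans an exon junction (exons 11 and 12 of Tead4, chromosome 6, 128228472 to 128228609, GRCm38, minus strand). It is shown for all 4 genes, 5′ to 3′ on the coding strand, with capitals marking bases that differ from Tead4.
Tead4: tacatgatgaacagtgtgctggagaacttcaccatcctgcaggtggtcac
Tead3: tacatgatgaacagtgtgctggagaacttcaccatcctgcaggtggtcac
Tead2: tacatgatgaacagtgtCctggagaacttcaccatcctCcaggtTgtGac
Tead1: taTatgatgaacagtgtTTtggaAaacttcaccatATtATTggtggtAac
In this window Tead3 was identical to Tead4, Tead2 differed at 4 bases and Tead1 at 10. Over all annotated transcripts, however, only 10 of the 3681 50-base words of Tead4 (0.272%) occurred in another gene, and that gene was Tead3. The window is thus an exception, and nearly all 50-base words of Tead4 belonged to Tead4 alone.

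Among the other members the shared words were few, with 1 exception. Lats2 shared 2907 of its 7058 words (41.2%) with Gm49361, a predicted gene on the same strand that runs through the Lats2 exons. Gm49361 itself was given 0 to 22 counts per mouse against 3280 to 5450 for Lats2. Yap1 shared 1.35% of its words with other genes, and the remaining members at most 0.369%. Tead2 overlaps Cd37 on the opposite strand by 13 exon bases and Yap1 overlaps Gm20416 by 116; libraries were stranded, but whether counting used the strand is not given in the sources used here.

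Per unit of exon length, Amotl2, Wwtr1 and Lats2 had the highest levels, Tead1 was close to Yap1 and Vgll4, and the other TEAD factors and Lats1 had the lowest. In TPM (counts divided by the length of all annotated exons of the gene, then scaled to the same total in each mouse) the order was led by Amotl2 at 98.1 ± 9.84, Wwtr1 at 83.9 ± 10.9 and Lats2 at 64.2 ± 9.42 (SD, n = 10 mice here and below). A middle group followed, with Yap1 at 33.7 ± 3.13, Tead1 at 32.7 ± 7.29 and Vgll4 at 30.0 ± 2.40 TPM. Lats1 at 18.5 ± 2.71, Tead4 at 17.6 ± 3.09, Tead3 at 14.6 ± 1.35 and Tead2 at 13.3 ± 0.909 TPM were the lowest. Between neighbours in this order the ranges over mice were separate at only 2 places, between Lats2 and Yap1 and between Vgll4 and Lats1. Within a mouse, Wwtr1 lay above Lats2 in 10 of 10 mice and Amotl2 above Wwtr1 in 9 of 10, whereas Lats1 lay above Tead4 in 6 of 10. Wwtr1 (TAZ) mRNA was thus present at a higher level per length than Yap1 mRNA in this tissue, with separate ranges of 67.3 to 106 and 29.7 to 38.5 TPM. The order depends on the exon length assumed: with the longest transcript of each gene, 5 of the 9 neighbouring pairs kept their order, Vgll4 moved from place 6 to place 4 and Lats1 from place 7 to place 10. By the mean, Lats2 (71.4 TPM) then lay just above Wwtr1 (70.8 TPM), and Tead3 (23.5 TPM) above Tead4 (17.1 TPM).

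**Figure D1:**
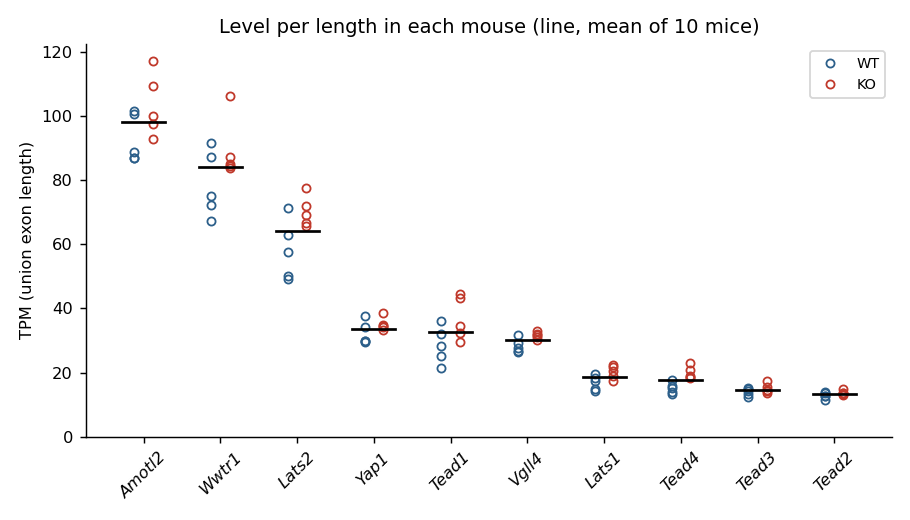
Level of each of the 10 genes in each mouse, in TPM from total exon length (linear axis from 0; open circles, one per mouse; black line, mean of 10 mice). Amotl2, Wwtr1 and Lats2 sit above 49 TPM in each mouse, Yap1, Tead1 and Vgll4 mix with each other, and Lats1, Tead4, Tead3 and Tead2 lie between 11.5 and 23.1 TPM.

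Tead4, a TEAD factor best known for specifying the trophectoderm of the early embryo, was higher in every KO mouse than in any WT mouse. Its levels were 33, 27.3, 27.9, 27.6 and 29.4 CPM in KO mice and 20.99, 25.3, 26.0, 23.3 and 20.7 CPM in WT mice. The means were 29.0 ± 2.37 and 23.3 ± 2.43 CPM (SD, n = 5 each), and the log2 fold change with sex in the model was 0.37 (SE 0.05), a 1.29-fold difference. Within each genotype the males were the high mice. The gap was also seen within each sex, though for males it rests on 1 KO mouse and 2 WT mice. Females stood at 27.3 to 29.4 CPM in KO (n = 4) and 20.7 to 23.3 CPM in WT (n = 3), and the KO male at 33 CPM against 25.3 and 26.0 CPM in the WT males. Without KO replicate 5 the KO mean was 28.9 ± 2.72 CPM (SD, n = 4).

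Tead4 was the only 1 of the 10 genes whose KO and WT ranges did not overlap, as was the case for 1.88% of the 18024 genes. Since this contrast put Tead4 among the members, nothing is read from that count. Over 19 alternative settings its log2 fold change lay between 0.32 and 0.41.

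Tead1, the TEAD gene with the highest level here, varied more between mice than its relatives. It stood at 232, 189, 164, 185 and 235 CPM in KO mice and at 126, 159, 200, 176 and 158 CPM in WT mice. KO replicates 1 and 5 were the high mice and WT replicate 1 the low one, with the remaining KO and WT values interleaved. The log2 fold change was 0.34 (SE 0.12), nearly that of Tead4 with a larger error. The KO mean was 201 ± 31.2 CPM (SD, n = 5), and 193 ± 28.5 CPM (SD, n = 4) without KO replicate 5. Tead2 and Tead3 did not separate the genotypes. Tead2 ran from 24.3 to 29.0 CPM in KO and 22.7 to 28.8 CPM in WT, and Tead3 from 37.5 to 47.4 CPM in KO and 36.6 to 41.5 CPM in WT. Their log2 fold changes were 0.02 (SE 0.07) and 0.03 (SE 0.07), and each took the other sign in 2 of the 19 alternatives.

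**Figure D2:**
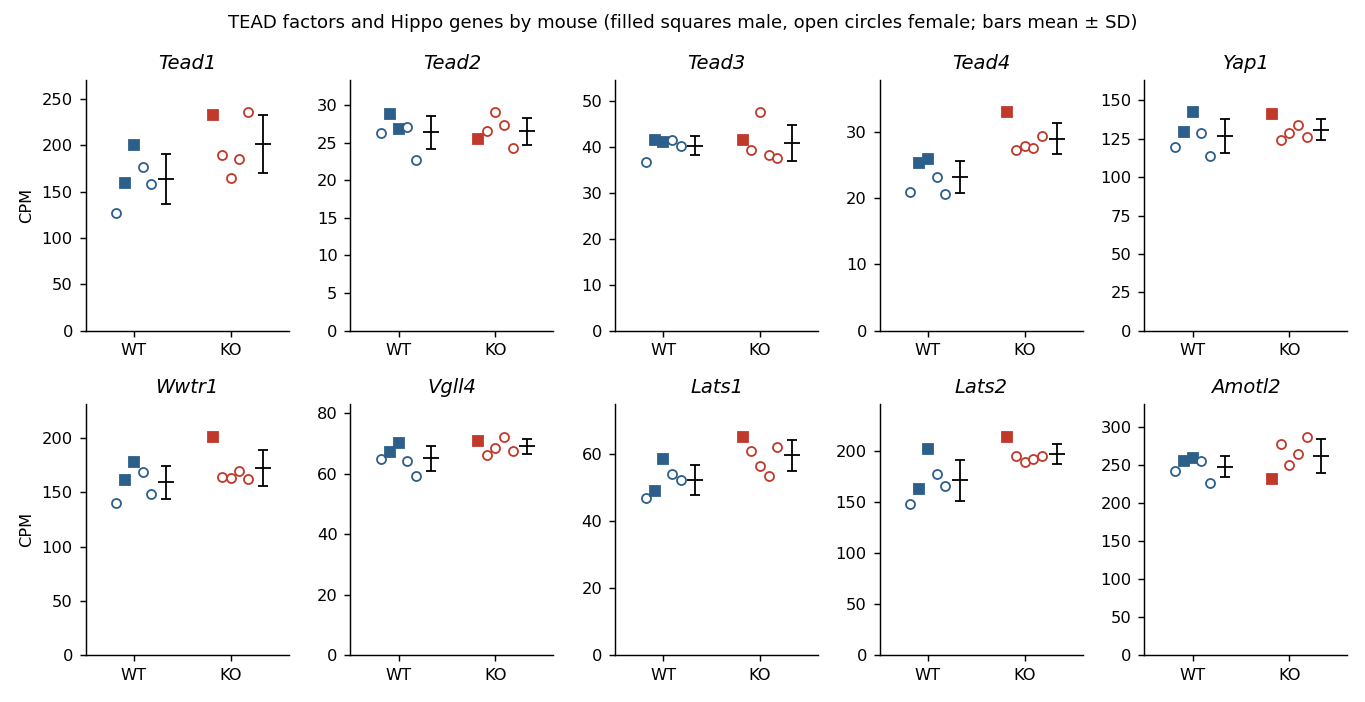
CPM of each of the 10 genes in each mouse (linear axes from 0; blue WT, red KO; filled squares males, open circles females; black bars mean ± SD, n = 5). Tead4 is the 1 panel in which all KO points (27.3 to 33 CPM) lie above all WT points (20.7 to 26.0 CPM); in the others the groups overlap.

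The 4 factors together gave 85.6 ± 7.83 TPM in KO and 70.8 ± 9.05 TPM in WT mice (SD, n = 5 each), with overlapping ranges. Tead1 made up the largest part of this sum in each mouse, 35.7% to 48.0%. The share of Tead4 was 24.3%, 23.0%, 23.5%, 23.4% and 22.6% in KO mice and 22.4%, 22.8%, 21.4%, 20.7% and 20.4% in WT mice, that is 23.4% ± 0.628 and 21.5% ± 1.02 (SD, n = 5 each). The lowest KO share lay just under the highest WT share, so within the family the separation seen in CPM was not complete. Computed with the longest transcripts, the KO share was 19.1%.

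Of the TEAD partners, YAP and TAZ transcripts overlapped widely between genotypes. Yap1 stood at 141, 124, 129, 134 and 126 CPM in KO and 120, 130, 142, 129 and 114 CPM in WT mice (log2 fold change 0.08, SE 0.05). Wwtr1 stood at 201, 164, 163, 170 and 162 CPM in KO and 140, 161, 178, 169 and 149 CPM in WT mice (0.15, SE 0.06). In both genes the KO male was the highest KO mouse and a male, replicate 3, the highest WT mouse. Vgll4, the cofactor that competes with them, ran from 66.1 to 72.2 CPM in KO and 59.1 to 70.1 CPM in WT (0.11, SE 0.05).

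The kinases gave the next largest differences after Tead4 and Tead1. Lats2, a YAP kinase that is itself a target of YAP and TAZ, stood at 214, 196, 190, 193 and 196 CPM in KO and 149, 163, 203, 177 and 166 CPM in WT mice. Only WT replicate 3 reached into the KO range, and the log2 fold change was 0.23 (SE 0.07). Its paralog Lats1 stood at 65.1, 60.7, 56.2, 53.4 and 62.0 CPM in KO and 46.9, 48.8, 58.4, 53.9 and 52.2 CPM in WT mice (0.21, SE 0.07), with the KO values of replicates 3 and 4 inside the WT range. Amotl2, a junction protein gene and also a YAP and TAZ target, was the 1 gene in which the KO male was the lowest KO mouse. It ran from 232 to 288 CPM in KO and 226 to 260 CPM in WT (0.07, SE 0.07).

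All 10 genes had a log2 fold change above 0, against 49.3% of all genes, with a median of 0.13 against -0.0027 over all genes. The members were chosen with this contrast known, so nothing is read from that count or median. The size of the fold changes also has to be read beside exon length, with which the fold changes of these libraries moved. In 5 equal bins of genes by total exon length, from short to long, the median log2 fold change was -0.08, -0.05, -0.02, 0.02 and 0.09, and 78.0% of the longest bin lay above 0. Tead1, Yap1, Lats1 and Lats2 are in the longest bin, the other members except Tead4 in the bin before it, and Tead4 (3598 exon bases) in the middle one. With offsets for exon length and GC content in the fit, an alternative added after seeing the data, the medians of the bins lay within 0.01 of 0. The log2 fold changes were then 0.41 (SE 0.05) for Tead4, 0.21 (SE 0.08) for Tead1, 0.20 (SE 0.05) for Lats2, 0.14 (SE 0.05) for Lats1 and -0.01 (SE 0.05) for Yap1. With these offsets 9 of 10 members lay above 0, against 50.5% of all genes, a count under the same limit of choice.

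**Figure D3:**
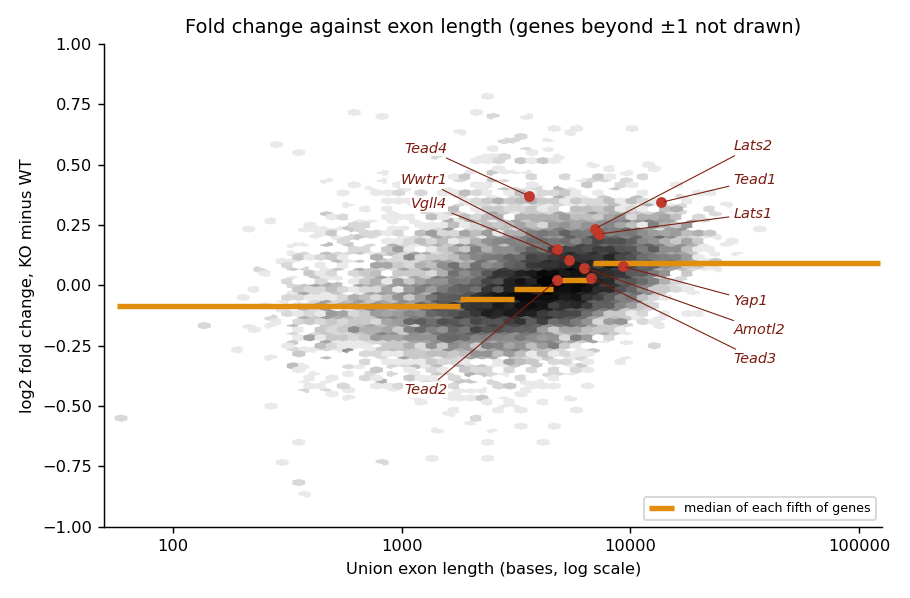
Log2 fold change of KO over WT against total exon length (log axis) for the tested genes (grey, darker where more genes lie), with the median of each of the 5 length bins (orange) and the 10 members (red). The medians climb from -0.08 to 0.09; Tead4 (0.37) lies farther above the median of its bin than any other member.

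Between the sexes, tested over 3 males and 7 females in the same model, 0 of the 10 genes reached an adjusted p under 0.05 in edgeR's quasi-likelihood test, where 0.583% of all genes did. At an unadjusted p under 0.05 stood 4 of the 10, all higher in males, against 15.1% of all genes in either direction and 7.34% higher in males. Without KO replicate 5, 0 passed, against 0.514% of all genes. At an unadjusted p under 0.05 again stood 4, all higher in males, now with Tead1 (0.28, SE 0.11) in place of Lats2. Of all genes 14.5% stood there in either direction and 7.13% higher in males. Tead4 was nearest to the threshold, with 25.3, 26.0 and 33 CPM in the males and 20.7 to 29.4 CPM (median 27.3) in the females. The highest female was KO replicate 5, and without it the females stood at 20.7 to 27.9 CPM. Its log2 difference of male minus female was 0.24 (SE 0.06, edgeR adjusted p 0.0769), and 0.25 (adjusted p 0.0997) without KO replicate 5. The DESeq2 Wald test placed it past the threshold (adjusted p 0.0274, where 2.42% of all genes passed), as did the length and GC offsets (edgeR adjusted p 0.0250). Both fits kept KO replicate 5. The share of all genes passing with the offsets is not given here, so nothing is read from that call. With limma-voom 0 members passed, against 0.516% of all genes.

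The coactivator genes did not pass either. Wwtr1 was 180 ± 20.2 CPM in males (n = 3) and 160 ± 11.1 CPM in females (n = 7; 159 ± 12.1 CPM over the 6 females without KO replicate 5), a log2 difference of 0.21 (SE 0.06, edgeR adjusted p 0.151, 0.0463 without WT replicate 4 and 0.204 without KO replicate 5). The share of all genes passing without WT replicate 4 is not given here, so nothing is read from that value. For Yap1 the values were 138 ± 7.0 and 125 ± 6.73 CPM (0.16, SE 0.06, edgeR adjusted p 0.208, and 0.263 without KO replicate 5). Without that mouse the females stood at 125 ± 7.35 CPM. Lats2 differed by 0.15 (SE 0.07, edgeR adjusted p 0.326, and 0.359 without KO replicate 5). Of the 10 genes 9 were higher in males, against 48.3% of all genes, the exception being Amotl2 (-0.03, SE 0.07), and the median was 0.13 against -0.0064 over all genes. Without KO replicate 5 the same count was 9, against 48.7% of all genes, with a median of 0.14 against -0.0048 over all genes. Sex moved with exon length as well, less steeply than genotype, from a median of -0.04 in the shortest bin to 0.04 in the longest. A genotype by sex interaction was not tested, since the KO group held 1 male.

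**Figure D4:**
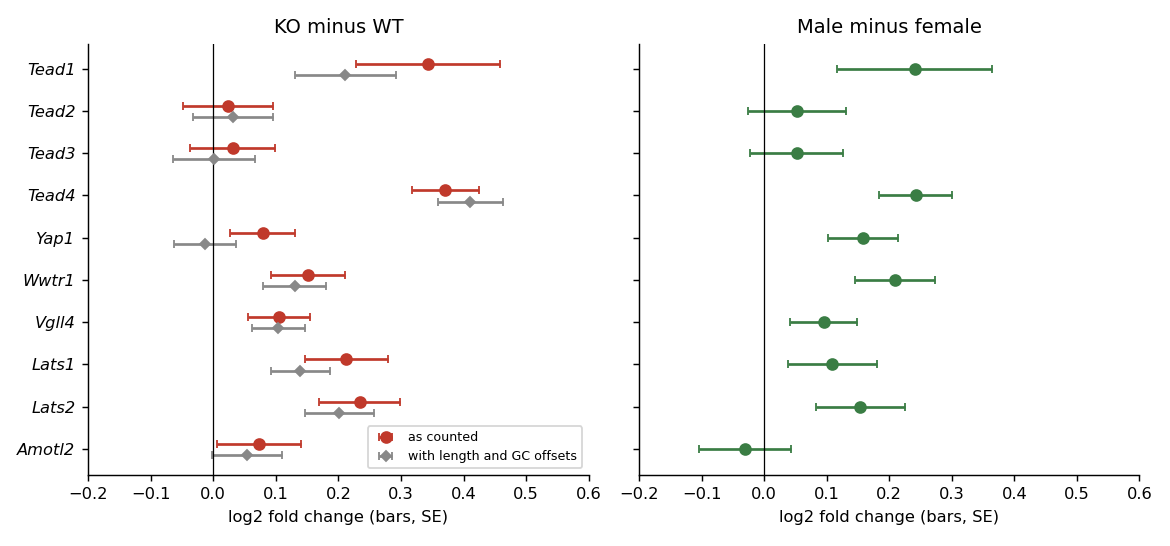
Log2 fold changes of the 10 genes with their standard errors: KO minus WT (left; red as counted, grey with offsets for exon length and GC content) and male minus female (right). Tead4 lies at 0.37 and 0.41 on the left and at 0.24 on the right, and Amotl2 is the only gene below 0 for sex.

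How the members varied together from mouse to mouse was read with the genotype means removed. Over the 10 mice Tead4 was most like Yap1 (Pearson's r 0.867 on log2 CPM centred within genotype) and Wwtr1 (0.860) among the members, followed by Tead1 (0.719), Lats2 (0.71), Vgll4 (0.689) and Lats1 (0.591). It was least like Tead3 (0.273), Tead2 (0.271) and Amotl2 (0.067). The wide background matters here: over 16284 genes the middle 90% of r with Tead4 ran from -0.727 to 0.748, and Yap1 ranked 165 in likeness. The 5 genes most like Tead4 were Zfp142 (r 0.984), Usp54 (0.972), Samd4b (0.966), Itsn1 (0.962) and Brd1 (0.960). Over the 45 pairs of members the median r was 0.327, from -0.359 for Tead2 with Lats1 to 0.894 for Yap1 with Vgll4, and 8 pairs exceeded 0.8. These values are descriptions over mice that share their library and depth effects, with sex not removed and without length and GC offsets. The part of exon length in them was not tested.

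The other genes of the pathway were read from a list of 42 by role, of which 40 were tested. Between genotypes 0 of 40 passed by edgeR's quasi-likelihood test (background 0.0222%), with 9 at an unadjusted p under 0.05 (22.5%, against 17% of all genes), each higher in KO, as were 8.92% of all genes. The DESeq2 Wald test called 1 gene and limma-voom 0, against 1.92% and 0.0111% of all genes. The median log2 fold change was 0.079, with 31 of 40 above 0, against 49.3% of all genes. It was 0.0079 with length and GC offsets, with 21 of 40 above 0, against 50.5% of all genes. Of the 40 genes, 22 are in the longest bin.

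By role, 0 of 5 core kinases and adaptors passed (1 at an unadjusted p under 0.05). Mob1a, a cofactor of the LATS kinases, differed by 0.08 (SE 0.06, edgeR adjusted p 0.490) and Stk4 (MST1) by -0.01 (SE 0.07, adjusted p 0.963). Among 10 upstream kinases 0 passed and 3 stood at an unadjusted p under 0.05. Taok2 differed by 0.11 (SE 0.06, edgeR adjusted p 0.345) and Map4k4 by 0.16 (SE 0.05, adjusted p 0.188). Of 8 LATS inhibitors and phosphatase complex genes 0 stood below either threshold; Slmap differed by 0.12 (SE 0.06) and the LIM protein gene Limd1 by -0.00 (SE 0.05). The vestigial-like cofactor genes Vgll1 and Vgll2 had at most 1 count in any mouse and were not tested, and Vgll3 differed by 0.09 (SE 0.12).

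The 16 membrane and junction regulators held 5 of the 9 genes at an unadjusted p under 0.05, and 0 passed after adjustment. The KIBRA genes Wwc1 and Wwc2, the most abundant of them, differed by 0.05 (SE 0.05, edgeR adjusted p 0.690) and 0.08 (SE 0.06, adjusted p 0.551). Dchs1, which encodes a large protocadherin that pairs with FAT4 between cells, gave the largest difference and is named after its values were seen. It stood at 22.1, 30.8, 32.2, 28.5 and 34.3 CPM in KO and 20.95, 18.8, 21.6, 21.4 and 20.9 CPM in WT mice. All KO values lay above all WT values, as in 1 of the 40 list genes and 1.88% of all genes in either direction, the KO male being the lowest KO mouse and only just above. The log2 fold change was 0.46 (SE 0.08, edgeR adjusted p 0.0767), and over 19 alternatives it ran from 0.36 to 0.58 and passed in 5, including the DESeq2 Wald test (adjusted p 9.48e-04) and the fit of females alone (edgeR adjusted p 0.0208). Its partner Fat4, also named afterwards, stood at 23.6 to 30.2 CPM in KO and 19.6 to 24.8 CPM in WT (0.28, SE 0.08, edgeR adjusted p 0.163).

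Targets of YAP and TAZ were read from a 22-gene signature that includes the members Lats2 and Amotl2. In KO against WT 0 of 22 passed by edgeR's quasi-likelihood test (background 0.0222%). At an unadjusted p under 0.05 stood 7 (6 higher and 1 lower in KO, against 8.92% and 8.04% of all genes). A log2 fold change above 0 was seen in 13, against 49.3% of all genes. Without the 2 members the figures were 0, 6 and 11 of 20, and the median was 0.031. With length and GC offsets 10 of these 20 lay above 0, against 50.5% of all genes, and the median was 0.010. Of the 20, the DESeq2 Wald test called 1, the RNA-binding protein gene Rbms3 (adjusted p 0.00672; by edgeR 0.27, SE 0.06, adjusted p 0.111), and limma-voom called 0. The shares of all genes were 1.92% and 0.0111%. Of the usual readout genes, Ccn1, Ccn2 and Ankrd1 varied more between mice than Axl. Ccn1 (also Cyr61), a matrix protein gene, stood at 91.8, 136, 134, 117 and 149 CPM in KO and 110, 92.7, 99.7, 101 and 72.6 CPM in WT mice. The KO females lay above all WT mice and the KO male below most of them, giving 0.35 (SE 0.14, edgeR adjusted p 0.246). Ccn2 (also Ctgf) differed by 0.15 (SE 0.22, edgeR adjusted p 0.765), the nuclear ankyrin repeat gene Ankrd1 by 0.20 (SE 0.19, adjusted p 0.628) and the receptor kinase gene Axl by -0.00 (SE 0.05, adjusted p 0.975). Tgfb2, a growth factor gene named after its values were seen, was the 1 gene of the 22 with separate ranges, as 1.88% of all genes had, at 36.2 to 41.5 CPM in KO and 29.0 to 35.4 CPM in WT (0.22, SE 0.06, edgeR adjusted p 0.152). F3, the tissue factor gene, also named afterwards, was the 1 lower gene at an unadjusted p under 0.05, with 48.2 to 55.9 CPM in KO and 49.7 to 60.9 CPM in WT (-0.16, SE 0.06, edgeR adjusted p 0.234).

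**Figure D5:**
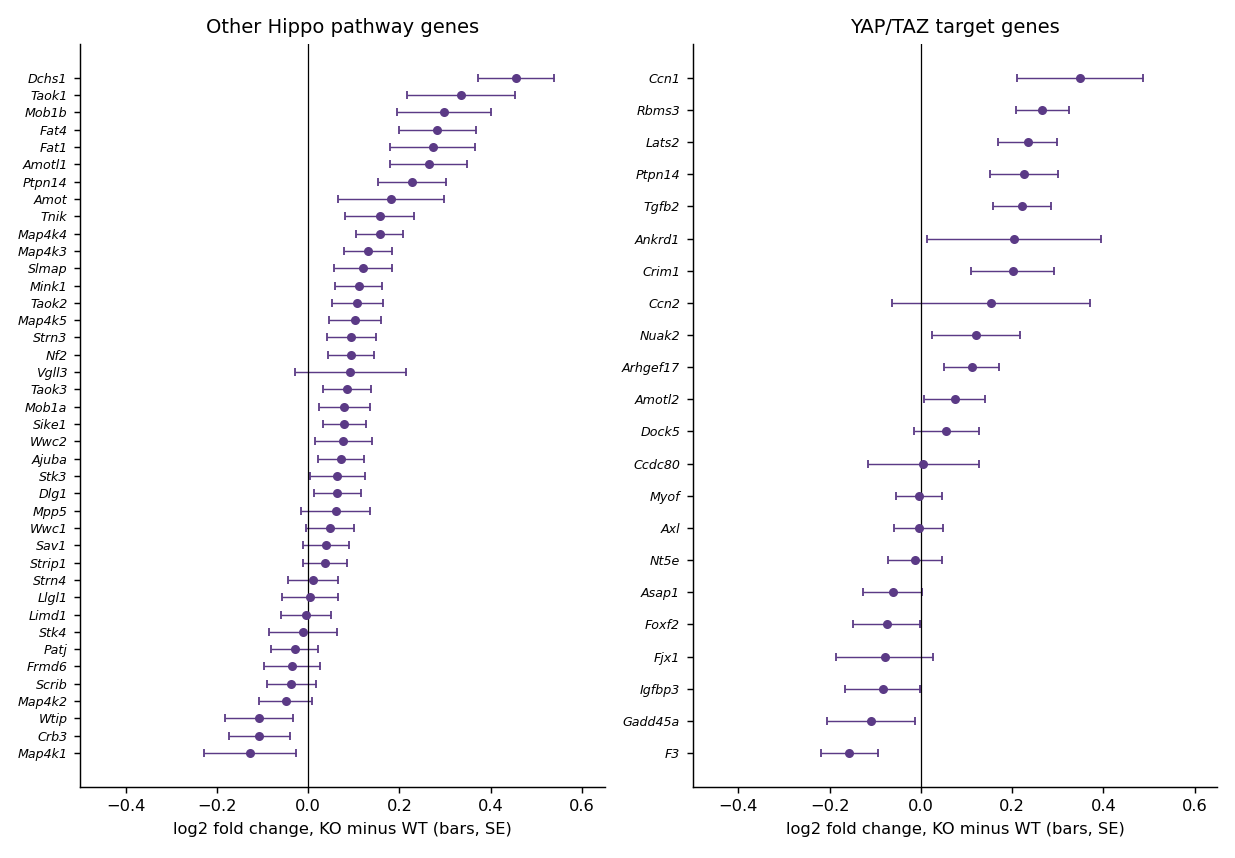
Log2 fold change of KO over WT with its standard error for the 40 tested Hippo pathway genes outside the members (left) and the 22 YAP and TAZ target genes (right), each sorted by value. Dchs1 (0.46) and Ccn1 (0.35) are at the top of the panels. Above 0 lie 31 of 40 and 13 of 22 points, against 49.3% of all genes, without length and GC offsets. No gene passes the adjusted threshold.

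TEAD proteins recognise the core GGAATG, read CATTCC on the other strand. Promoters of 3 listed genes are shown as examples of where it lies: the member Amotl2 and the readout genes Ankrd1 and Ccn1. Each is the 250 bases before the annotated start from RefSeq (GRCm38.p6), 5′ to 3′ on the strand of the gene, with the core in capitals on either strand. Amotl2 lies at chr9:102717554-102717803 on the plus strand, Ankrd1 at chr19:36119845-36120094 and Ccn1 at chr3:145649986-145650235, both on the minus strand.
Amotl2: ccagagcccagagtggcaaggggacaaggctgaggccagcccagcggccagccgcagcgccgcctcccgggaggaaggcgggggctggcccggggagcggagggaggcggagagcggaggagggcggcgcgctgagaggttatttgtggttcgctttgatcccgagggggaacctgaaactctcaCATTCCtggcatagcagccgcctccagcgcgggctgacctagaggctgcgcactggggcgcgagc
Ankrd1: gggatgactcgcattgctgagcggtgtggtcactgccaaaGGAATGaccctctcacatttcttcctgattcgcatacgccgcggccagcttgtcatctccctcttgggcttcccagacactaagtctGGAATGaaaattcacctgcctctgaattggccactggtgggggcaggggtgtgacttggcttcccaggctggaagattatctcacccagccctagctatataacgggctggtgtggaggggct
Ccn1: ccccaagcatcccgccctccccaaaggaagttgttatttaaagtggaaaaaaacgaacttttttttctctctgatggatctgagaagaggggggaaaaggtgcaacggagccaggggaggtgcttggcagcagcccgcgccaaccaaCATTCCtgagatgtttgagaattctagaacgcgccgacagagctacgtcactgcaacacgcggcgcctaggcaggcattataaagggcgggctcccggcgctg
The core begins 65 bases before the start in Amotl2, 210 and 123 in Ankrd1, and 103 in Ccn1. Of the 30 distinct member and target genes 21 were matched to a promoter, and 10 of these held the core in at least 1 window, among them the members Tead3, Yap1, Wwtr1, Vgll4 and Amotl2. The same held for 14.4% of 27025 genes. Only 8 of the 10 members were matched: Tead1 and Tead4, like the target Ccn2, had no promoter entry and were not examined. By window, 12 of 26 held it, some of them overlapping windows of 1 gene, against 12.6% of 32851 promoters of the same length. A match of letters is a description, not a binding site.

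Around Tead4 itself, on chromosome 6 (128224288 to 128300823, minus strand), the table held 21 genes within 100 kb, of which 9 were tested. In KO against WT 0 of the 9 passed by edgeR's quasi-likelihood test, with 0 at an unadjusted p under 0.05, against 0.0222% and 17% of all genes. With so small a share passing among all genes, 0 of 9 is not read as a result about the locus. The nearest coding neighbour, the tubby-family gene Tulp3, stood at 38.5 ± 1.22 CPM in KO and 36.8 ± 1.27 CPM in WT (SD, n = 5 each; log2 fold change 0.07, SE 0.05). The tetraspanin gene Tspan9 differed by -0.02 (SE 0.06), the cell cycle factor gene Foxm1 by 0.00 (SE 0.15), and Rhno1 by 0.02 (SE 0.08). The ribosomal pseudogene Rpl18-ps2 differed by -0.58 (SE 0.38), Nrip2 by 0.33 (SE 0.31), and Gm26770, Gm44371 and 9330102E08Rik by -0.09 (SE 0.11), -0.09 (SE 0.35) and -0.13 (SE 0.34). The 1 gene that overlaps Tead4, Gm21893, had at most 1 count in any mouse.

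Markers of the cell types that whole lung holds were read beside these values. In each of 12 marker lists 0 genes passed between genotypes by edgeR's quasi-likelihood test, where 0.0222% of all genes did. Of all genes 49.3% had a log2 fold change above 0, and 8.04% were lower in KO at an unadjusted p under 0.05. The share above 0 went from 32.6% in the shortest length bin to 78.0% in the longest. Marker values are given without length and GC offsets. Alveolar type 1 markers, which sum over 10 genes, gave 8210 to 8987 CPM in KO and 8535 to 9577 CPM in WT, with 3 of 10 above a log2 fold change of 0. Alveolar type 2 markers gave 28166 to 31988 and 29180 to 34728 CPM, with 5 of 8 genes lower in KO at an unadjusted p under 0.05, and club cell markers 26111 to 29291 and 26752 to 34336 CPM, with 6 of 6 below 0. Endothelial markers gave 2653 to 2783 and 2260 to 2818 CPM, with 5 of 6 above 0, and fibroblast markers 2390 to 2776 and 2088 to 2641 CPM, with 5 of 6 above 0. Mesothelial markers, which belong to the lung surface, gave 157 to 216 and 168 to 239 CPM with 5 of 5 below 0. Smooth muscle markers gave 891 to 1104 and 899 to 1240 CPM, with 5 of 6 below 0, and macrophage markers 419 to 620 and 517 to 642 CPM, with 4 of 6 above 0. Ciliated cell markers gave 612 to 728 and 613 to 701 CPM, with 4 of 7 above 0. At an unadjusted p under 0.05 stood 2 ciliated genes, neither lower in KO, where 8.92% of all genes were higher in KO. The type 1, club, smooth muscle, fibroblast and mesothelial lists each held 1 such gene, lower in KO. Basal cell markers were near the bottom of the scale (2.92 to 5.29 and 2.43 to 5.86 CPM), with 1 of 3 tested genes above 0. Cardiac muscle markers gave 598 to 1035 and 390 to 1020 CPM, with 4 of 5 above 0. Skeletal muscle markers gave 15.3 to 22.3 and 9.46 to 27.1 CPM, with 3 of 3 tested genes below 0 and Myh4 at or under 3 counts. The sums overlapped between genotypes in every list, and their part in the values of the TEAD and Hippo genes was not tested.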

How the data were processed

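RNA of 10 mouse lung lobes was sequenced as single 50-base reads from KAPA stranded mRNA libraries on an Illumina HiSeq instrument, per the labels' protocols. The authors deposited estimated counts per gene, not scaled between mice. STAR 2.6.0, Salmon 0.9.1, FastQC, MultiQC and the builds mm10 and GRCm38 are named per the submitters' processing notes, without their roles. By a tolerance of 0.01, 30.1% of the values above 0 were not whole, as when reads are shared out between transcripts. Identifiers were matched to GENCODE M21 (47281 matched, 52 did not and held 0.00668% of counts), and 0 columns were left without a sample.

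Counts were rounded. Genes were kept by filterByExpr (minimum count 10, minimum total 15) and fitted for genotype plus sex with edgeR 4.0.16 in R 4.3.3 (robust quasi-likelihood test, TMM scaling, Benjamini-Hochberg adjustment over 18024 genes, threshold 0.05). DESeq2 1.42.0 and limma 3.58.1 were alternatives, with other scalings and filters, females alone and each mouse left out. 3 counts equal 0.103 to 0.143 CPM, which covers counting error only. Scripts were tested on simulated data.

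The members, gene lists and rules were chosen with earlier results of these data known. Named genes are the members, the 2 most abundant genes of each Hippo role, 4 usual targets, tested neighbours of Tead4 within 100 kb, the 5 genes most like it, and any list gene that passed. Dchs1, Fat4, Rbms3, Tgfb2 and F3 were named after their values were seen. Replicates were numbered in accession order. The p-values set each difference against the spread between these mice and take the mice as independent. The labels do not say whether mice were littermates, so that independence is not known.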

Additional observations from a re-analysis of the deposited data

Results flagged for a closer look

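Single mice stood apart in 3 of the 20 sets of 5 values (10 genes in 2 genotypes), by a gap to the nearest mouse above Dixon's 95% critical value of 0.71 of the range. Chance gives about 1 such flag in 20 sets. Tead3 was 36.6 CPM in WT replicate 1, a female, while the other WT mice stood at 40.1 to 41.5 CPM. Wwtr1 was 201 CPM in KO replicate 1, the KO male, while the KO females stood at 162 to 170 CPM. Lats2 was 214 CPM in the same mouse, while the KO females stood at 190 to 196 CPM.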

How the results depend on the processing

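The number of genes called between genotypes over the whole table, 4 in the fit described, was 346 by the DESeq2 Wald test, 50 with no filter on low counts and 2 by limma-voom. It ran from 2 (without KO replicate 2, 4 or 5, or WT replicate 1) to 18 (without WT replicate 3) when 1 mouse was left out. From 8 to 10 members lay above 0 over all alternatives, in the contrast with which they were chosen. The Hippo list, with 0 called, gave 1 (Dchs1) by DESeq2, in females alone and with no filter, and 0 to 1 with 1 mouse left out (1 without KO replicate 1 or WT replicate 3). The target list gave 2 by DESeq2 (Rbms3 and the member Lats2), where 1.92% of all genes passed, and 0 in each leave-one-out fit. Lats2 was chosen with the genotype contrast known, so nothing is read from its call. For sex, 0 members called became 1 by DESeq2 and 1 with length and GC offsets (Tead4 in both), with a leave-one-out range of 0 to 1 (Wwtr1 without WT replicate 4). By DESeq2 2.42% of all genes passed for sex. The shares of all genes with the offsets and without WT replicate 4 are not given here, so nothing is read from those calls. The longest transcript in place of all exons kept 5 of 9 neighbouring pairs in the level order and gave Tead4 a share of 19.1% of TEAD TPM in KO in place of 23.4%. The cause of these changes was not tested. No paired analysis was made, since the labels used here name no cage or litter for a mouse. The replicate numbers used here do not pair mice. Each member had at least 463 counts in every mouse, while Vgll1 and Vgll2 had at most 1, too few to test.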
